A study of Mus musculus with 9 samples.

Results

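The 3 control livers of a mouse liver study are described here on their own, as the transcriptome of an unmanipulated liver at 5 weeks of age. They are 3 of the 9 livers in the series and were chosen by their labels alone, as the samples whose titles read control and whose genotype is WT. No measured value entered that choice. The series concerns HP1 proteins, which bind methylated histone tails in heterochromatin, and the other 6 livers came from mice lacking 1 or more of them. No mutant liver is compared here.

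The WT mice carried none of the study's deletions, were 5 weeks old, and had a strain background given as C57BL/6 together with 129svPas. The labels name 1 animal per library, here WT replicates 1, 2 and 3, numbers that only tell the livers apart. They say nothing of sex, litter, feeding state or the hour of dissection. A mixed background is a limit of this group as a model, because single mice can differ in inherited alleles. Pieces of washed liver were frozen in liquid nitrogen, and RNA was extracted with Trizol. Stranded libraries were made from total RNA after target-specific oligos had removed cytoplasmic and mitochondrial ribosomal RNA, so transcripts without a poly(A) tail are also represented. The values describe the spread between 3 animals. Mouse, RNA preparation and library vary together and cannot be told apart.

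The liver is built mainly from hepatocytes, large cells that secrete most plasma proteins, make bile acids, glucose and lipoproteins, and detoxify foreign compounds and ammonia. They are divided into zones along the blood flow, periportal cells making urea and glucose, and pericentral cells carrying glutamine synthesis and much of the cytochrome P450 system. Sinusoidal endothelial cells, Kupffer cells (the resident macrophages), vitamin A-storing stellate cells and bile duct cells (cholangiocytes) make up the rest. Many hepatocyte genes follow the daily clock, the feeding state and pulses of growth hormone, and hepatocytes of young mice still divide.

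The libraries held 32954080, 30247512 and 31003283 reads in genes for WT replicates 1, 2 and 3, and 18499 to 18621 of the 22701 genes in the table had at least 1 read. In each liver 13805 to 13960 genes had at least 10 reads, and 2114 genes were at 0 in all 3. A count of 0 allows up to 3 reads, a normalised value of 2.67 to 2.86 depending on the library, and this limit covers counting error only. Protein-coding genes took 96.4, 97.4 and 97.1% of the reads. Values below are normalised read counts unless a share of reads or a level per length is named, and errors are SD over n = 3 livers. Hepatocyte markers led the ranking by reads, as the label liver implies: Alb, Apob and Serpina3k ranked 1, 3 and 4 of all genes.

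The reads were concentrated in few genes. Alb, encoding serum albumin, took 5.89, 8.64 and 7.46% of all reads in WT replicates 1, 2 and 3 (7.33 ± 1.38%). It was lowest in replicate 1 and highest in replicate 2. The 10 highest genes of each liver took 16.9, 20.01 and 19.1% (18.7 ± 1.61%), the 100 highest 42.5, 44.4 and 43.6% (43.5 ± 0.949%), and the 1000 highest 72.1 ± 0.287%. The summed share thus varied more between livers for the 10 highest genes than for the 1000 highest. The spread of single genes is described further below. It took 177, 163 and 167 genes to reach 50% of the reads, and 3672, 3664 and 3649 genes to reach 90%. Of the 30 highest genes of each liver, 25 were shared by all 3 livers, and 84 of the 100 highest were shared.

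**Figure D1:**
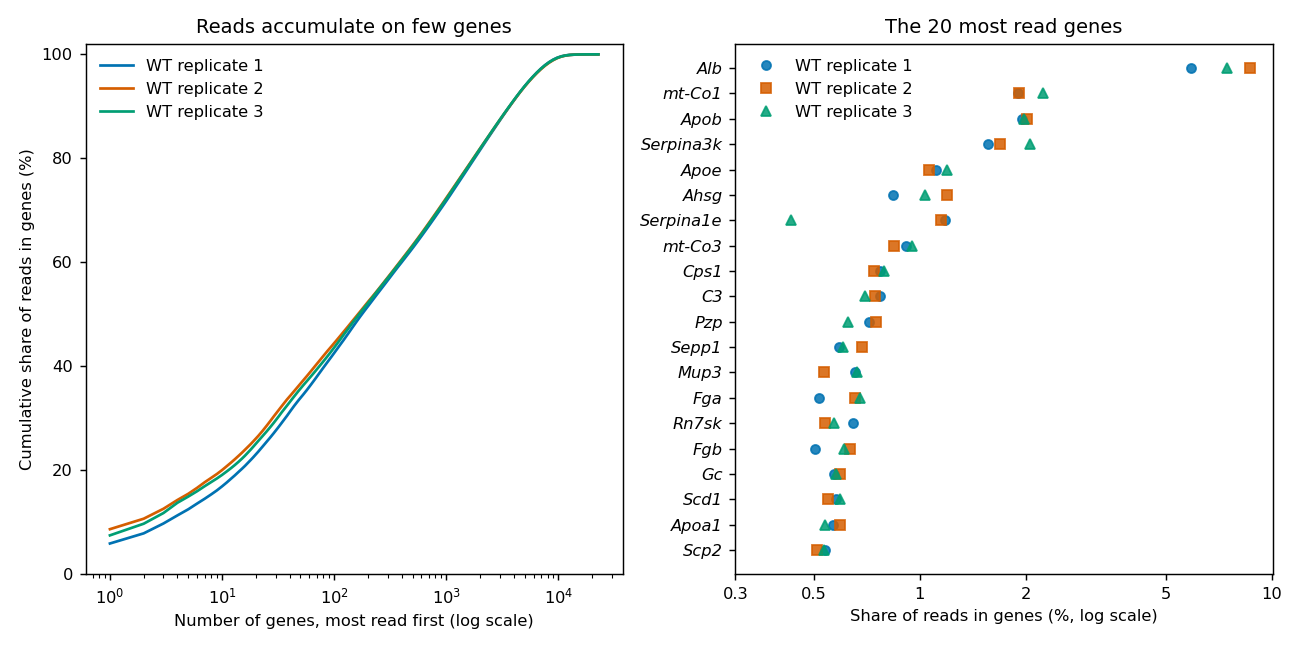
Share of reads taken by the highest genes in each WT liver. The cumulative plot shows the percent of reads (y axis) against the number of genes, ranked within each liver (x axis, log scale), and the other panel shows the percent of reads of the 20 highest genes, 1 point per liver. The 3 curves lie close together, with 50% reached at 163 to 177 genes, and Alb stands apart from every other gene at 5.89 to 8.64%.

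Secreted plasma proteins filled most of the top ranks. Apob (chr12:7977648-8016835, GRCm38), the structural protein of very low density lipoprotein, took 1.95, 2.02 and 1.98% of reads and hardly varied. Serpina3k (chr12:104338486-104346144), a serine protease inhibitor, took 1.56, 1.69 and 2.05%, with the highest share in replicate 3. Apoe, a ligand for lipoprotein uptake, took 1.11, 1.06 and 1.20%. Ahsg, encoding the plasma glycoprotein fetuin-A, took 0.839, 1.19 and 1.03%, lowest in replicate 1 as Alb was. Serpina1e, an alpha-1-antitrypsin copy, took 1.18, 1.15 and 0.432%, and so was set apart in replicate 3. It was the only gene among the 10 highest at least 2-fold apart between livers (345191, 332325 and 125433, 2.75-fold). The complement component C3 (0.770, 0.748 and 0.700%), the macroglobulin Pzp (0.719, 0.751 and 0.626%) and the vitamin D carrier Gc (0.573, 0.596 and 0.580%) followed with small spread.

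Mitochondrial and metabolic transcripts stood beside them. The mitochondrially encoded cytochrome c oxidase subunit mt-Co1 was the second gene by reads, at 1.90, 1.91 and 2.24%, and mt-Co3 took 0.912, 0.844 and 0.954%. Cps1, the ammonia-fixing enzyme of the urea cycle, took 0.774, 0.743 and 0.792%. Scd1, which puts a double bond into fatty acids, took 0.578, 0.550 and 0.595%. These metabolic transcripts varied less between livers than Alb or Ahsg. The xenobiotic-metabolising P450 enzymes gave opposite orders: Cyp3a11 took 0.397, 0.502 and 0.591%, highest in replicate 3, and Cyp2e1 0.4998, 0.403 and 0.397%, highest in replicate 1. The transcription regulator RNA Rn7sk, a short nuclear RNA without a poly(A) tail, took 0.648, 0.540 and 0.573%.

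Ranking by reads favours long transcripts, so levels of different genes were compared as reads per kb of exon, scaled to 1000000 in each liver. On this per-length scale Alb remained first, at 56123, 88299 and 73356 (72593 ± 16102). Rn7sk was second at 40864 ± 2491, followed by mt-Co1 at 30136 ± 3044 and mt-Co3 at 26587 ± 1272. Rpph1, the RNA of ribonuclease P that trims transfer RNA, ranked 5 at 25977 ± 3103. The apolipoprotein Apoa2 (15409 ± 1284.2) and the fatty acid carrier Fabp1 (15875 ± 2251) entered the first 10 genes on this scale and did not differ beyond their spread. The long transcripts Apob and Cps1 lay at 3287 ± 168 and 3198 ± 86.8 per length, at ranks 45 and 47, and also overlapped. Metazoa_SRP, an entry for the signal recognition particle RNA that guides secretory proteins to the endoplasmic reticulum, ranked 6, but its normalised counts were 101694, 14392 and 121137. Replicate 2 was lowest for it by 7.07-fold against the nearer liver. The genome carries many copies of this RNA, and the division of reads among them is uncertain.

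Gene families showed how the secretory output was divided. Albumin and its relatives (4 genes, with Gc, Afm and the fetal Afp) took 6.49, 9.27 and 8.06% of reads, nearly all of it from Alb and Gc. The 28 apolipoprotein genes, which build lipoprotein particles, took 4.79, 4.77 and 4.85%, with a ratio of 1.02 between the highest and the lowest liver. The 25 mitochondrially encoded genes took 5.51, 4.57 and 4.99%. Complement genes took 2.01, 1.97 and 1.88%, and coagulation factors with plasminogen 0.954, 0.954 and 0.893%. The fibrinogen chains Fga, Fgb and Fgg, which form the clot, together took 1.39, 1.78 and 1.81%, and each of the 3 was lowest in replicate 1. Complement and coagulation genes as families differed by 1.08-fold between the highest and the lowest liver, the fibrinogen chains by 1.29-fold and the albumin family by 1.40-fold.

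Protease inhibitors and pheromone carriers were less even. The Serpina1 copies took 2.25, 2.19 and 1.44%, lowest in replicate 3 through Serpina1e, and the Serpina3 copies 1.63, 1.76 and 2.1%, highest in replicate 3. The alpha-macroglobulins, broad protease traps of plasma, took 1.35, 1.27 and 1.07%. Within them Mug2 had 30412, 14413 and 1941 normalised counts, while the related Mug1 took 0.530, 0.472 and 0.439% of reads. The major urinary proteins, small pheromone-binding proteins made under growth hormone and androgen control, took 2.16, 1.18 and 1.72% over 20 genes. The Serpina1, Serpina3, Mug and Mup copies are close in sequence, so how reads were split between them is uncertain and the family sums are the firmer values.

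Families of detoxification and metabolism ranged widely in size. The 91 cytochrome P450 genes took 2.23, 2.17 and 2.37% of reads, of which the Cyp2 genes alone took 1.43, 1.28 and 1.39%. The Cyp3 genes took 0.489, 0.618 and 0.684%, lowest in replicate 1. The flavin monooxygenases, which oxidise drugs as well, took 0.0855, 0.0442 and 0.0398%, with replicate 1 well above the other livers. Glutathione transferases took 0.660, 0.616 and 0.689%, and UDP-glucuronosyltransferases, which conjugate drugs and bilirubin, 0.539, 0.474 and 0.547%. The 6 urea cycle genes took 1.28, 1.19 and 1.27%. The 349 solute carriers took 2.13, 2.01 and 1.97%. Cytoplasmic ribosomal proteins took 1.07, 1.38 and 1.27%, lowest in replicate 1, and nuclear subunits of the respiratory chain 1.04, 1.09 and 1.12%. Histone transcripts, most of which lack a poly(A) tail, took 0.0863, 0.107 and 0.0790%. Olfactory receptors, sensory genes with no known main role in liver, took 0.00252 ± 0.000262% over 39 genes.

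**Figure D2:**
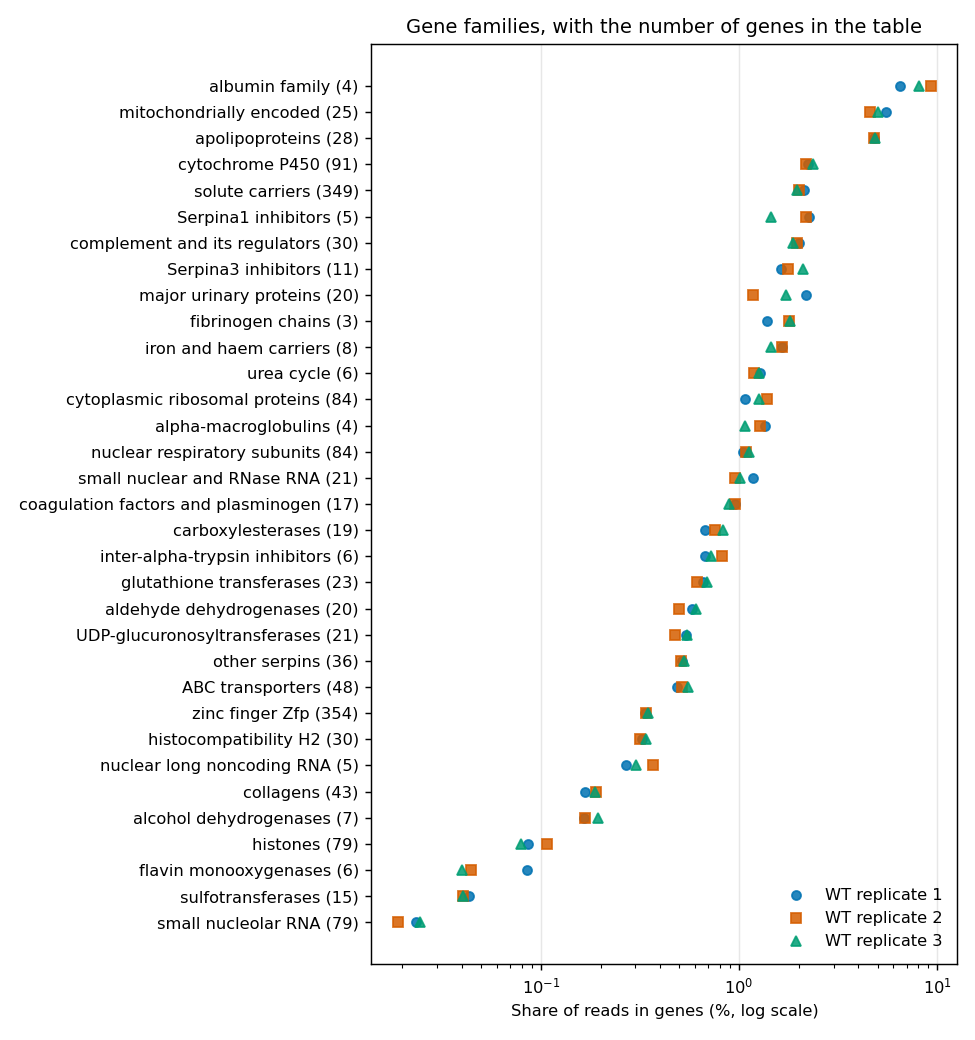
Percent of reads taken by each gene family in the 3 WT livers (x axis, log scale, 1 point per liver, families on the y axis). The albumin family leads at 6.49 to 9.27%, and the major urinary proteins are among the families whose points lie far apart, at 1.18 to 2.16%.

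Marker lists of cell types showed a tissue dominated by hepatocyte transcripts. The 14 hepatocyte markers took 14.3, 17.8 and 16.7% of reads, and their median level per length was 5325. The hepatocyte transcription factor Hnf4a was at 16479, 16338 and 15969.6 normalised counts, the same in the 3 livers within 1.03-fold. The pericentral markers took 0.915, 0.784 and 0.817% and the periportal markers 1.14, 1.05 and 0.928%. Glul, the glutamine synthetase confined to cells at the central vein, had 25258, 25800.2 and 25773. Sds, a periportal enzyme that degrades serine, had 6109, 4388 and 2569.5, with replicate 3 lowest. In bulk tissue, fewer cells of a type and less RNA per cell cannot be told apart, and this holds for every list.

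The other resident cells of the liver were present at much lower and similar levels. Kupffer cell markers took 0.0727, 0.0775 and 0.0828% of reads, with a median level per length of 26.5. Clec4f, a lectin that defines Kupffer cells, had 3321, 3952 and 4734 normalised counts, and Cd5l, a secreted macrophage protein, 3026, 3319.8 and 3192. Sinusoidal endothelial markers took 0.114, 0.109 and 0.123% (median per length 18.3), with the hyaluronan receptor Stab2 at 4077, 4227 and 4673. Stellate cell markers took 0.0578, 0.0784 and 0.0705% (median per length 11.3). Lrat, which esterifies vitamin A for storage, had 916, 1332 and 878, and Reln, an extracellular matrix protein of stellate cells, 3855, 4574 and 4145. Replicate 1 was lowest for 9 of the 16 stellate markers and for 9 of the 16 Kupffer markers. Among all 11324 genes with a mean of at least 50 it was lowest for 3982.

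Cholangiocytes and white blood cells contributed traces. The cholangiocyte markers took 0.00441, 0.00875 and 0.00686% of reads. Most of these came from Spp1, encoding osteopontin, at 553, 1533 and 947, together with Pkhd1, at 543, 759 and 817. The duct keratin Krt19 had only 15.1, 25.7 and 35.6. T cell markers took 0.000373, 0.000436 and 0.000452%, and neutrophil markers 0.000212, 0.000245 and 0.000187%, with Ly6g at 0 in all 3 livers. Ighm, the heavy chain of immunoglobulin M, had 83.6, 153 and 233. The 5 skeletal muscle markers together held 2, 1 and 3 reads. Erythroid markers were not at trace level, at 0.0253, 0.0289 and 0.0629% of reads, with a median per length of 50.1. Among them the adult globin Hbb-bs had 1435, 3065 and 8576, and Hba-a1 had 495, 936 and 1969, both highest in replicate 3. The haem synthesis enzyme Alas2 did not share that order, at 4710.4, 2839 and 4448. The globin genes are near-identical in pairs, and the division of their reads is uncertain.

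**Figure D3:**
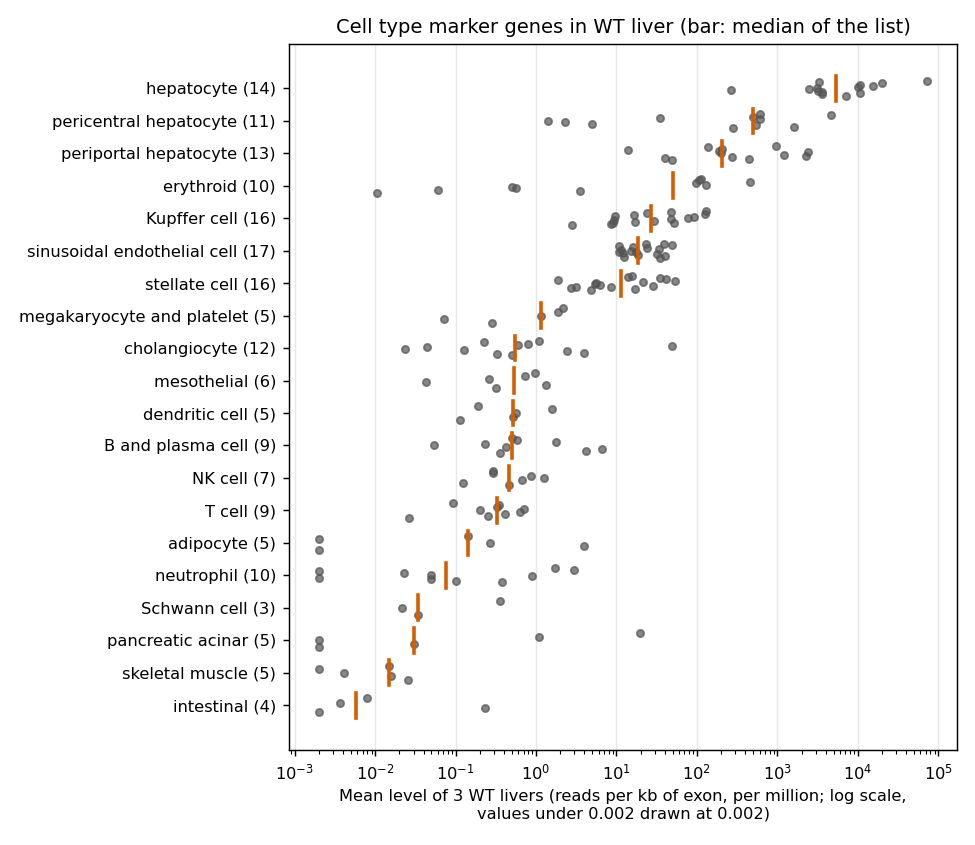
Level per length of each cell type marker (points, mean of the 3 WT livers, reads per kb of exon scaled to 1000000, x axis on a log scale) by marker list (y axis), with a bar at the median of each list. The hepatocyte median is 5325, against 26.5 for Kupffer cells, 18.3 for sinusoidal endothelial cells and 0.549 for cholangiocytes.

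Livers were then compared gene by gene. Of the 11324 genes whose mean normalised count reached 50, 906 (8.0%) were at least 2-fold apart between the highest and the lowest liver, on the scale of normalised count + 1 used for the folds between livers below (lower bounds for genes at 0 apart), and the median gene was 1.26-fold apart. A chi-square test of the reads of each gene, Benjamini-Hochberg adjusted, found 7925 genes (70.0%) to differ between these libraries beyond counting error, all 906 among them. That test compares libraries and not conditions. Without replicate 1, 2 or 3 the share beyond counting error was 43.8, 57.2 or 52.3%, each over a pair of livers. Replicate 1 was the liver set apart for 384 of the 906 genes, replicate 3 for 303 and replicate 2 for 219. Over all 11324 genes, replicates 1, 2 and 3 were highest for 4464, 3001 and 3859 and lowest for 3982, 3658 and 3684. Counts of list members highest or lowest in a liver stand beside these. Leaving out replicate 1, 2 or 3 left 393, 585 or 474 genes at least 2-fold apart, over the remaining pair of livers. The share was 20.4% among genes with a mean from 50 to 100 and 4.48% among those from 500 to 1000. Of the 100 highest genes by reads, 7 were at least 2-fold apart.

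**Figure D4:**
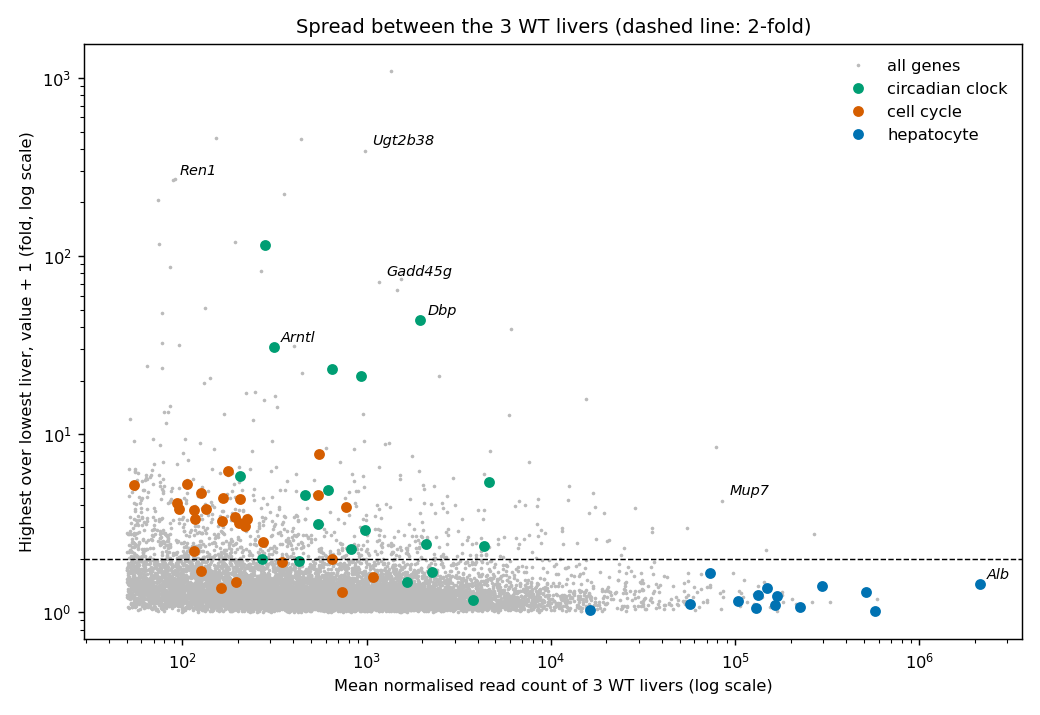
Mean normalised count (x axis, log scale) against the fold between the highest and the lowest of the 3 WT livers (y axis, log scale) for the 11324 genes tested, with clock, cell cycle and hepatocyte marker genes coloured. The dashed line marks 2-fold: all 14 hepatocyte markers lie under it, 14 of 19 clock genes and 21 of 28 cell cycle genes above it.

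Circadian clock genes set replicate 3 apart. The clock is a feedback loop in which Arntl (Bmal1) and Clock drive transcription of the Per and Cry repressors, of the nuclear receptors Nr1d1 and Nr1d2, and of the output factors Dbp, Tef and Hlf. Of 19 clock genes with a mean of at least 50, 14 were at least 2-fold apart, beside 8.0% of all genes, with a median of 3.14-fold beside 1.26-fold. Without replicate 3, 1 of the 19 was, with a median of 1.25-fold. Replicate 3 was lowest for 14 of the 19 and highest for the other 5, which were Arntl, Clock, Cry1, Nfil3 and Rora. The hour of dissection is not among the labels, and its part in these values was not tested.

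Output genes of the loop were low in replicate 3. Gm129 (Ciart, ENSMUSG00000038550), a repressor of the clock, had 549.7, 289.5 and 3.75 normalised counts, 116-fold apart. Dbp, a D-box binding activator, had 2755, 3036 and 68.4 (43.8-fold). Replicates 1 and 2 were close for Dbp and replicate 3 lay far below them. Per3, a Period gene, had 1300.3, 1425 and 66.5 (21.1-fold), and Usp2, a deubiquitinase with rhythmic expression, had 1217, 668 and 51.5 (23.2-fold). Tef had 6280.2, 6324 and 1177. Rgs16, a rhythmic regulator of G protein signalling that was not in the clock list, had 3168, 4013 and 188. Per1 and Per2 were graded: Per1 had 871, 495 and 276, and Per2 had 1025, 610.4 and 209.

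The activator arm had the opposite order. Arntl had 26.7, 67.6 and 848 normalised counts, 30.7-fold apart, with replicate 3 highest. Npas2, a partner that can stand in for Clock, had 2.67, 8.57 and 78.7, under the mean of 50 that the counts above required. Clock had 1327, 1765 and 3194, and the D-box repressor Nfil3 had 313, 379 and 605. Rora, which activates Arntl, differed little, at 3699, 3536 and 4139.

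**Figure D5:**
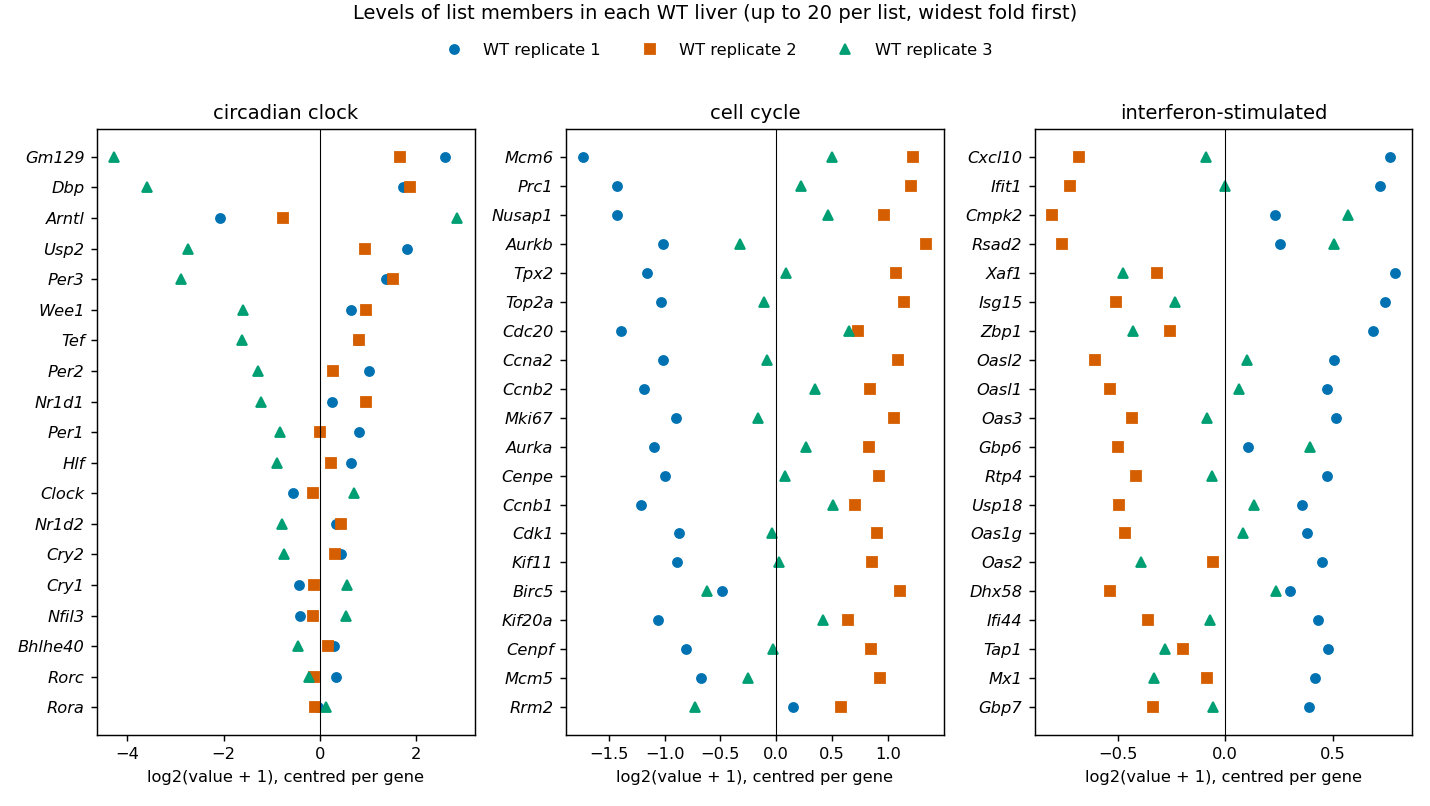
Log2(normalised count + 1) of each gene minus its mean over the 3 WT livers (x axis) for clock, cell cycle and interferon-stimulated genes (y axis). Each gene has 1 point per liver, for up to 20 genes a list with the widest range. Replicate 3 is lowest for 14 and highest for 5 of 19 tested clock genes. Cell cycle genes are highest in replicate 2 for 26 of 28 tested, and interferon-stimulated genes are highest in replicate 1 for 35 of 40.

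Promoter windows of 3 of these genes are shown, chosen because they carry known clock elements. The elements sought were the E-box CACGTG bound by Arntl with Clock and the D-box TTATGTAA bound by Dbp, Tef and Hlf. Also sought was TAGGTCA, a core of the element bound by Rora and Nr1d1. Each window runs from 250 bases before to 50 bases after a RefSeq start, 5′ to 3′ on the gene's strand (build GRCm38.p6), with matches in capitals. Per3 lies at chr4:151044616-151044915 on the minus strand and Gm129 at chr3:95882179-95882478 on the minus strand. Arntl lies at chr7:113207261-113207560 on the plus strand.
Per3: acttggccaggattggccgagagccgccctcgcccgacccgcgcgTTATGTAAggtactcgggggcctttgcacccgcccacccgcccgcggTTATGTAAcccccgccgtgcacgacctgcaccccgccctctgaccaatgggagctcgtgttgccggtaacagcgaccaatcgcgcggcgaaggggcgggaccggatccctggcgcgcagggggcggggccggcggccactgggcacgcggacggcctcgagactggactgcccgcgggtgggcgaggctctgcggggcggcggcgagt
Gm129: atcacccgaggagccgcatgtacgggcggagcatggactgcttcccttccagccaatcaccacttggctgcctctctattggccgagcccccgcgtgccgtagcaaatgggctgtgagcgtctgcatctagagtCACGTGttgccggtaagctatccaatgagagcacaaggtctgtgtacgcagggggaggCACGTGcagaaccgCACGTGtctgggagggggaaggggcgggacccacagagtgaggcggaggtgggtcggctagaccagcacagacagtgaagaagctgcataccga
Arntl: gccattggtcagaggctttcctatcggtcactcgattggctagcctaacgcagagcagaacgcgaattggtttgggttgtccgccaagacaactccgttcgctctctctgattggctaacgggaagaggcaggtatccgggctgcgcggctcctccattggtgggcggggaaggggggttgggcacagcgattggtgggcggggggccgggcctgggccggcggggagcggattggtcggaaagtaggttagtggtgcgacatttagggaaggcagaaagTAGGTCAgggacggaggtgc
Per3, at 66.5 in replicate 3, has D-boxes beginning 205 and 158 bases before the start. Gm129, at 3.75 there, has E-boxes beginning 116, 58 and 44 bases before it. Arntl, at 848 there, has the TAGGTCA core beginning at base 31 of the transcript. Both strands were searched, and the marked matches do not overlap. Of the other genes lowest in replicate 3, Tef and Per1 had windows with an E-box. The windows of Dbp, Usp2 and Rgs16, also lowest there, held none of the 3 elements. Nor did the windows of Nr1d1, Nr1d2, Cry2 and Hlf, or the other windows of Arntl and Per1.

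Over the 22 windows of the 17 clock genes (of 21) matched in RefSeq, 6 (27.3%) held an E-box, beside 7.15% of all 32851 promoter windows. A D-box was in 1 (4.55%), beside 0.938%, and TAGGTCA in 2 (9.09%), beside 2.61%. Over the 11469 windows of genes with a mean of at least 50, the shares were 9.98% for the E-box, 0.576% for the D-box and 2.08% for TAGGTCA. A match in such a window is a description of its letters and shows no binding.

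Cell division genes ordered the livers differently, with replicate 2 high and replicate 1 low. Of 28 tested cell cycle genes, 21 were at least 2-fold apart, beside 8.0% of all genes, with a median of 3.39-fold beside 1.26-fold. Replicate 2 was highest for 26 and replicate 1 lowest for 22. Mki67, the proliferation antigen Ki-67, had 354, 1377 and 591 normalised counts. Top2a, the topoisomerase that untangles replicated DNA, had 219.7, 999 and 419.5, and the mitotic kinase Cdk1 93.4, 322 and 167. The replication helicase subunit Mcm6 had 122, 953 and 575 (7.77-fold), the spindle protein Prc1 50.7, 321 and 161 (6.23-fold) and the mitotic kinase Aurkb 20.5, 109.5 and 33.7 (5.15-fold). Replicate 1 was lowest and replicate 2 highest for each of these 6. Not every replication gene shared this: Pcna, the polymerase clamp, had 656, 849 and 707, and Mcm2 had 164, 186 and 136. Without replicate 1, 7 of 28 remained at least 2-fold apart (median 1.72-fold), and without replicate 2, 10 of 28 (median 1.81-fold).

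Histone transcripts, most of them made in the phase of DNA replication, were also highest in replicate 2. Of 45 tested histone genes, 37 were highest in replicate 2, and 29 were at least 2-fold apart (median 2.78-fold), beside 8.0% of all genes. Without replicate 2, 2 of the 45 were (median 1.20-fold). The linker histone Hist1h1b had 77.4, 412 and 67.4 normalised counts, with replicates 1 and 3 close. Hist1h3c, an H3 gene, had 40.02, 177 and 43.1, and Hist2h2bb, an H2B gene, 108, 494 and 121. Histone genes therefore set replicate 2 apart from both other livers, whereas for Mcm6 replicate 3 was the middle liver. Histone copies are near-identical, and the split of reads among them is uncertain.

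The windows of Cdk1 and Hist1h1b are shown as examples of these groups, with CCAAT (bound by NF-Y; ATTGG on the other strand) in both, TTTGAA (the CHR element known from cell cycle genes; TTCAAA on the other strand) in both, and TATAAA (the letters of the TATA box) in Hist1h1b. Cdk1 lies at chr10:69352863-69353162 and Hist1h1b at chr13:21780576-21780875, both on the minus strand. Capitals mark these matches.
Cdk1: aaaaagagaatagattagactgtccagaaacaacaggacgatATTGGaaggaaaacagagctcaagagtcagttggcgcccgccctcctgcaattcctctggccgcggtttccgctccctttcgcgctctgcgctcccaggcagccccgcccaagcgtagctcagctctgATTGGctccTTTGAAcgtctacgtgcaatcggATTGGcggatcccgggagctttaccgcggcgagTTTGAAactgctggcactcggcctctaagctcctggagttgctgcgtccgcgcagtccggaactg
Hist1h1b: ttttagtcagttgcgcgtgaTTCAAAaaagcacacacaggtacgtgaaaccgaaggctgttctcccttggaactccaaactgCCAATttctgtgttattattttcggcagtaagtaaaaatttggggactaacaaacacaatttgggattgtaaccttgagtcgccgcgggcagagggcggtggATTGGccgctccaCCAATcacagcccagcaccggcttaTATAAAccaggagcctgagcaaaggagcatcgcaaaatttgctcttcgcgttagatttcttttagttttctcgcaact
In Cdk1, TTTGAA begins 71 and 15 bases before the start, and ATTGG 208, 80 and 48 bases before it. In Hist1h1b, TATAAA begins 28 bases before the start, with CCAAT or ATTGG at 168, 66 and 53 bases, and TTCAAA at 230 bases.

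Of the 25 windows of the 24 cell cycle genes (of 30) matched, 13 (52.0%) held TTTGAA, beside 17.9% of all windows, and 21 (84.0%) held CCAAT, beside 37.4%. Among tested histone genes, the 37 named Hist1h to Hist4h were sought, and 32 matched, with 33 windows. Of these 24 (72.7%) held CCAAT, 13 (39.4%) TTTGAA and 21 (63.6%) TATAAA anywhere on either strand, the last beside 13.6% of all windows. TATAAA on the gene's strand, lying within 45 to 15 bases before the start, where a TATA box is usually placed, was in 9 (27.3%), beside 2.14%. CCAAT was also in 72.7% of the clock windows and of the windows of hepatocyte markers.

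Interferon-stimulated genes, antiviral effectors switched on by interferon signalling, set replicate 1 above replicate 2. Of 40 tested, 9 were at least 2-fold apart, beside 8.0% of all genes, and the median was 1.63-fold beside 1.26-fold. Replicate 1 was highest for 35 and replicate 2 lowest for 31, so the order was shared more widely than the size. The chemokine Cxcl10 had 132, 47.6 and 72.1 normalised counts, and the translation blocker Ifit1 979, 359 and 594. Rsad2, the enzyme viperin, had 812, 401 and 968, and its neighbour Cmpk2 406, 197 and 514. For Rsad2 and Cmpk2 the highest liver was replicate 3. Without replicate 1 or replicate 2, 2 of the 40 were at least 2-fold apart.

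Acute phase genes, which hepatocytes turn on in inflammation, were mixed. Of 28 tested, 10 were at least 2-fold apart (median 1.67-fold), beside 8.0% of all genes. That count was 1 without replicate 1 and 5 without replicate 3. Hamp, the iron hormone hepcidin, had 3089.9, 346 and 558, and Lcn2, a siderophore-binding protein, 253, 113 and 59.9. The serum amyloid gene Saa4 had 14710.2, 5928 and 4716, and Saa1 2098, 1355 and 795. These 4 were highest in replicate 1. Socs3, a feedback inhibitor of cytokine signalling, had the reverse order, at 137, 227 and 418. The main clotting proteins of the list, the fibrinogen chains, were lowest in replicate 1. Reads of Saa copies may be shared between them.

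Genes that differ between the sexes in adult liver were among the most variable. The 3 livers were alike in the Y-linked helicase Ddx3y, at 3833, 4004 and 4549. Xist, which silences the second X chromosome, was low, at 0.889, 0.952 and 11.2. These values are the pattern of male tissue in all 3 livers, though the labels do not give sex. Of 15 tested female-biased genes, 9 were at least 2-fold apart (median 2.48-fold), beside 8.0% of all genes, and replicate 2 was highest for 10. Cyp2a4, a steroid hydroxylase, had 48.0, 589 and 88.0, and Cyp2b9 had 10.7, 134 and 101. Cyp2c69 had 768, 3143 and 2204. Replicate 1 was lowest for each of these 3 P450 genes. Without replicate 1, 3 of the 15 were at least 2-fold apart (median 1.43-fold), and without replicate 2, 5 (median 1.57-fold).

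Male-biased genes had no common order. Of 29 tested, 13 were at least 2-fold apart (median 1.64-fold), beside 8.0% of all genes, and 8 were after leaving out any 1 liver. Elovl3, a fatty acid elongase, had 2404, 3452 and 16866, highest in replicate 3. Ugt2b38, a glucuronosyltransferase, had 3.56, 1158 and 1775 normalised counts and the widest range of all named genes, with replicate 1 near 0. Cyp7b1, an oxysterol hydroxylase, had 12565, 4699.7 and 8188, lowest in replicate 2. Among the major urinary proteins, 14 of 17 tested genes were at least 2-fold apart, beside 8.0% of all genes, with a median of 3.86-fold. Mup7 had 128671, 30408 and 96881, and Mup20 (darcin, a male pheromone) 97246, 32525 and 34373. Replicate 1 was highest for 13 of the 17 and replicate 2 lowest for 14. Without replicate 1 the count was 8 (median 1.61-fold), and without replicate 2 it was also 8 (median 1.92-fold). Mup3, the member with the most reads, was nearly even, at 192228, 154385 and 192701. Mup, Cyp2 and Ugt2b copies may share reads.

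Genes of the fed and fasted state also differed. Of 16 genes of fasting and glucose output, 7 were at least 2-fold apart (median 1.91-fold), beside 8.0% of all genes. Without replicate 3 that count was 3 (median 1.16-fold). Igfbp1, an insulin-repressed binding protein, had 2054, 2411 and 7677, the insulin signalling adaptor Irs2 358, 648 and 1352, and G6pc, the last enzyme of glucose release, 14772, 13361 and 34091. All 3 were highest in replicate 3. Pck1, the entry enzyme of gluconeogenesis, was lowest there instead, at 113203, 110168 and 68282. On the side of fat storage, Thrsp, a lipogenic protein, had 12935, 9244 and 4484, lowest in replicate 3. It belongs to the list of fatty acid synthesis. There 4 of 20 tested genes were at least 2-fold apart, beside 8.0% of all genes. Without replicate 1 that count was 1, and without replicate 3 it was 2.

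PPAR-alpha targets, which burn fatty acids, were at least 2-fold apart for 8 of 19 tested (median 1.78-fold), beside 8.0% of all genes. That count was 5 without replicate 1 and 2 without replicate 2. Replicate 2 was highest for 12. The thioesterase Acot3 had 38.2, 235 and 29.0, and the fatty acid hydroxylase Cyp4a14 610.1, 3008 and 2493. Cyp4a12b, which is male-biased as well, had the other order, at 1499, 310.5 and 817. Of 20 bile acid genes, 3 were at least 2-fold apart, beside 8.0% of all genes, with a median of 1.32-fold beside 1.26-fold, and 1 was without replicate 1 or replicate 2. Cyp7a1, the rate-limiting enzyme of bile acid synthesis, had 12469.8, 3578 and 3150.1, highest in replicate 1. Cholesterol synthesis genes were at least 2-fold apart for 4 of 24 (median 1.31-fold), beside 8.0% of all genes. Without replicate 1 or without replicate 3 that count was 0 of 24. Pmvk, a mevalonate pathway kinase, had 483, 799.9 and 1464, highest in replicate 3.

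Lists of stress genes held members with opposite orders. Their counts at least 2-fold apart stand beside 8.0% of all genes. Among endoplasmic reticulum stress genes 8 of 25 were at least 2-fold apart (3 without replicate 1), led by Asns, the asparagine synthetase, at 837, 81.9 and 58.1. Psat1, a serine synthesis enzyme under the same control, was lowest in replicate 1, at 20.5, 125 and 45.9. Among immediate early genes, which respond within minutes to stimuli, 7 of 13 were at least 2-fold apart (3 without replicate 3, and 4 without replicate 1 or replicate 2). The phosphatase Dusp1 had 785, 207 and 1910.3, and the growth regulator Myc 118, 65.7 and 535, both highest in replicate 3. Of 14 heat shock genes 3 were (1 without replicate 1 or replicate 2), with the chaperone Hspa1b at 242, 247 and 789. The metal-binding metallothioneins were highest in replicate 2 and lowest in replicate 3: Mt1 had 1010.4, 2468 and 280.0, and Mt2 had 397, 788 and 24.3.

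Several of the widest single differences were in genes high in 1 liver only. Ren1 (chr1:133350510-133360325), encoding renin, had 266 in replicate 1 and 0 reads in the other 2 livers, so replicate 1 was at least 93.1-fold higher, with 3 reads allowed per liver. Ctse (chr1:131638306-131675505), the protease cathepsin E, had 571, 4.76 and 3.75, and Myom2, a sarcomere protein, 249.9, 4.76 and 1.87. Both were high in replicate 1 as Ren1 was. Other muscle genes were not: the 5 skeletal muscle markers held 2 reads in that liver. Cd1d2, annotated as a polymorphic pseudogene of a lipid-presenting protein, had 225, 3.81 and 3.75. Rps3a3 and Rps3a2, intronless copies of a ribosomal protein gene, had 1066, 3.81 and 4.68, and 780.0, 11.4 and 8.43. Reads of these copies may come from near-identical sequence elsewhere, and inherited alleles were not examined.

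Single genes also marked replicates 2 and 3. The DNA damage and stress response gene Gadd45g had 445, 40.9 and 3012, 71.8-fold apart, with no 2 livers close. Plk3, a stress-activated kinase, had the same order at 2104, 511 and 3167. Onecut1, a hepatocyte transcription factor, was also lowest in replicate 2, at 1464, 176 and 928. Dmbt1, a mucosal scavenger receptor protein, had 0, 15.2 and 205, so replicate 3 was at least 76.9-fold above replicate 1. The phosphate carrier Slc34a2 had 6.23, 14.3 and 173. G0s2, an inhibitor of fat breakdown, had 1239, 1509 and 116, lowest in replicate 3. A2m, the alpha-2-macroglobulin, had 13.3, 190.5 and 33.7, highest in replicate 2. On the low side of replicate 1 were Sgce, a membrane sarcoglycan, at 36.5, 164 and 167, and Cdpf1 at 13.3, 65.7 and 87.1.

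Position in the genome gathered some of these genes. Of 373 windows of 5 Mb with at least 10 tested genes, 18 had more than 20% of their genes at least 2-fold apart, 68 had none, and the median window had 6.90%. The first was chr4:60000001-65000000, with 18 of 40 genes (45%), which is the cluster of major urinary protein genes. The second was chr13:20000001-25000000, with 23 of 54 (42.6%), most of them histone genes, and replicate 2 was the liver apart for 20 of the 23. The mitochondrial genome followed, with 7 of 17 genes (41.2%), and replicate 1 was apart for 6. Without replicate 1, 1 of the 17 was at least 2-fold apart, and without replicate 3, 4 were.

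The mitochondrial genes differed in their order of the livers: of 17 tested, replicate 1 was highest for 12 and replicate 3 for 5. The ribosomal RNA genes mt-Rnr1 and mt-Rnr2 had 28139.7, 12146 and 7811, and 216374, 125827 and 97279. Oligos had been used to remove these RNAs, and the part of that step in their values was not tested. Among protein-coding genes, the complex I subunits mt-Nd4, at 62664, 21152 and 22468, and mt-Nd5, at 37256, 10286 and 10551, were highest in replicate 1. The oxidase subunits mt-Co1 and mt-Co3 were not, at 556007, 550438 and 650422, and 267371, 242999 and 277063. The order did not follow the kind of subunit. The complex I subunit mt-Nd3 was lowest in replicate 1, at 28862, 30177 and 33134. Outside complex I, mt-Cytb was highest there, at 87950, 55129 and 53798. Transcripts of the same circular genome thus had different orders of the livers.

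Some groups held no gene at least 2-fold apart. None of the 14 hepatocyte markers, of the 82 tested cytoplasmic ribosomal protein genes or of the 77 tested nuclear respiratory subunits was at least 2-fold apart, beside 8.0% of all genes. Within the ribosomal proteins the order was shared: 71 were highest in replicate 2 and 74 lowest in replicate 1, at a median of 1.28-fold. None of 13 tested genes for HP1 proteins and their partners was at least 2-fold apart either, and with so few genes, as with the 14 hepatocyte markers, that count is near the share of all genes. Their median of 1.22-fold was close to the 1.26-fold of all genes. Cbx5, encoding HP1α, had 1542, 1167 and 997 normalised counts, Cbx1 (HP1β) 1082, 868 and 802.5, and Cbx3 (HP1γ) 536, 639 and 640.5. Cbx5 and Cbx1 were highest in replicate 1, and Cbx3 was lowest there. Per length, Cbx1 lay at 17.0 ± 2.19, Cbx5 at 10.9 ± 2.13 and Cbx3 at 8.05 ± 1.09, and only Cbx1 stood clear of the other 2 by more than their SD.

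Transcripts typical of fetal liver were low. Afp, the fetal relative of albumin, had 36.5, 36.2 and 42.1 normalised counts, beside 1726290, 2489710 and 2164450 for Alb. Per length this was 0.903 ± 0.0849 against 72593 ± 16102. The imprinted growth gene H19 had 0.889, 11.4 and 8.43, and Gpc3, a fetal cell surface proteoglycan, 25.8, 22.9 and 24.3. Of 7 fetal liver genes with a mean of at least 50, 4 were at least 2-fold apart, beside 8.0% of all genes. Replicate 3 was highest for 6 of the 7.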

How the data were processed

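RNA-seq of 3 WT livers was used, identified by genotype labels. The deposited values are a normalised signal made by the authors: read counts per gene divided by 1 size factor per library. Tools listed in the submitters' processing notes, without their roles, are DESeq2 1.0.19, HTSeq 0.5.4p3, Bowtie2 2.1.0, TopHat2 2.0.10 and CASAVA 1.8.2, with build mm10. Neither the annotation release nor whether counting used strand is given there, so reads of overlapping or antisense genes cannot be told apart. Every column consisted of whole steps, each worth 1 read (100% of values within 0.1 read), which gave whole reads and size factors of 1.12, 1.05 and 1.07. Of 22701 genes, 22257 (98.0%) had an identifier in the GENCODE annotation of GRCm38, used for coordinates, types and exon lengths. The other 444 have no length here. For 97 entries the symbol was not unique. No pair of livers was a duplicate (chi-square per degree of freedom 78.0 to 120).

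Shares are of recovered reads. Folds between livers are (highest + 1)/(lowest + 1), for genes with a mean of at least 50. Reads were compared with a chi-square test against counting error, Benjamini-Hochberg adjusted at 0.05, tested on simulated data. As there is 1 group, no test between conditions was possible. Genes named were the 30 highest by reads, 15 more by reads per kb, then, of genes with a proper gene name (no Gm number, Rik or clone name), 6 per liver and direction and the 10 widest, and up to 4 per list, with markers of each cell type. Some further list members were named after their values were seen, and not all named by the rule are printed. Values of some genes are not reported here. The members and the gene lists (40 lists, 39 families) were chosen with earlier results of these data known, so counts over lists are descriptions without a test. Alternatives covered the denominator, scaling, filter, pseudocount, dispersion ranking and leaving out each liver. Python 3.11.15 with numpy 2.4.6, scipy 1.17.1, pandas 2.3.3 and matplotlib 3.10.9, and R 4.3.3 with edgeR 4.0.16 and DESeq2 1.42.0 (dispersion of the recovered reads only) were used.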

Additional observations from a re-analysis of the deposited data

How the results depend on the processing

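Of the main shares, counts and median folds recomputed under the alternatives, 135 stayed within 1 SD or 1.5 times and 17 did not. Part of the 135 was fixed in advance. Leaving out 1 of 3 livers always moves a mean share by less than 1 SD. It also cannot move a median fold under 1.5 by more than 1.5 times. Per kb of exon, the 10 highest genes took 29.4% and the 100 highest 61.5%, and 41.3 genes on average reached 50%. Without mitochondrially encoded genes the 100 highest took 41.9%. The number of genes at least 2-fold apart was 1787 with a mean of at least 10, 459 with a mean of at least 200 and 5213 with no filter. Leaving out 1 liver, it was 393 to 585, over a pair of livers. Equal totals, TMM, median-of-ratios scaling and pseudocounts of 0.5 and 5 gave 864 to 917. The percent differing beyond counting error was 43.8 to 57.2 with 1 liver left out. Leaving out 1 liver gave median folds of 1.25 to 2.89 for clock, 1.16 to 1.72 for fasting, 1.43 to 2.44 for female-biased and 1.72 to 3.39 for cell cycle genes. Fewer livers by construction narrow a range. For the other changes the cause was not tested. Counts of list and family members under equal totals or with 1 liver left out were chosen after seeing the data. The 10 widest genes with a proper gene name (no Gm number, Rik or clone name) shared 9 with the ranking by edgeR dispersion and 9 with that by DESeq2. Genes under a mean of 50 are not judged here. No paired analysis was possible because there is 1 group.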
